A study of Mus musculus with 2 samples.

Results

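Blood vessels in bone are built and kept by secreted factors and the receptors that endothelial cells carry for them. Vegfa, Vegfc and Pgf encode secreted growth factors of the vascular endothelial growth factor (VEGF) family. Kdr, Flt1 and Flt4 encode the VEGF receptors: Kdr transmits the main growth signal of VEGF-A, Flt1 binds VEGF-A and placental growth factor, and Flt4 binds VEGF-C and is known from lymphatic and marrow sinusoidal vessels. Tek encodes the angiopoietin receptor Tie2, Apln and Aplnr encode a secreted peptide and its receptor, and Esm1 encodes a secreted proteoglycan known from sprouting endothelium. In bone, hypertrophic chondrocytes and cells of the osteoblast lineage are known sources of VEGF-A, and the marrow sinusoids are wrapped by Cxcl12-abundant reticular (CAR) cells, stromal cells that express Cxcl12, Lepr and Adipoq.

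These 10 genes, listed by name among the 21905 genes of the deposited tables, were followed in 2 droplet-based 3′ single-cell RNA libraries of cells from femurs and tibias. The bones came from 12-week-old female mice harvested at 96 h, of which those of the Veh library had received vehicle and those of the Doxo library 10 mg/kg of doxorubicin, a chemotherapy drug that damages DNA. The sources used here do not give the number of mice behind either library or a transgene. Cells with CD45, CD71 or Ter119 on their surface were depleted, and the labels, unlike the methods, also list CD31, a surface protein of endothelial cells, so the endothelial cells that remained may be a selected part of those in bone. Each condition has 1 library, so no test between conditions was possible. Intervals are at 95% and cover no more than counting error, and a gene is called past a fold of 2 where at least 20 of its unique molecular identifiers (UMIs, counted RNA molecules) were found over both libraries in a class. Levels are UMIs summed over the cells of a class, scaled to 1000000 UMIs of that class (CPM), and differences are given as the log2 of the Doxo level over the Veh level after 0.5 was added to every UMI sum.

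The tables held 2488 cells each for Veh and Doxo, with a median of 8693 UMIs per cell in the former and 7347.5 in the latter, and the libraries shared 4 cell barcodes. Cells were clustered without the 10 genes among the variable genes, and clusters were named from lists of markers, so names are written as "like" a cell type. Endothelial-like cells, with 8 of 8 endothelial markers, numbered 103 in Veh and 69 in Doxo, with medians of 6326 and 4629 UMIs. Cdh5 was found in 95.1% of them in Veh and 94.2% in Doxo, and Emcn in 97.1% and 87.0%. CAR-like cells numbered 364 and 420, bone and cartilage fibroblast-like cells 1095 and 1345, arteriolar and endosteal fibroblast-like cells 425 and 262, osteoblast-like cells 211 and 136, and chondrocyte-like cells 246 and 201, and a cluster of 44 and 55 cells stayed unnamed. Immune markers were almost absent from the endothelial-like cells, at a sum of 24.3 CPM over 6 genes in Veh and 22.9 CPM in Doxo, with Ptprc at 0 in both. The 8 CAR markers summed to 826 CPM in the endothelial-like cells of Veh and to 2577 CPM in those of Doxo. In CAR-like cells the sums were 39042 CPM and 47638 CPM. Cxcl12 alone was at 395 CPM and 1494 CPM in the endothelial-like cells. The level of CAR markers in endothelial-like cells thus differed between the libraries. Whether this RNA came from CAR-like cells, and its part in the results on endothelial-like cells, was not tested.

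The 250 bases before the RefSeq start site of Vegfa, Vegfc, Pgf, Esm1 and Flt1 (GRCm38.p6) are shown because the former 4 genes had their highest level of any named class in CAR-like cells, whose markers include the transcription factor gene Ebf3, while Flt1 was found almost only in endothelial-like cells. Capitals mark the letters CCCNNGGG, a core of the motif bound by EBF factors, which reads the same on both strands. Vegfa lies on the minus strand (promoter chr17:46032378-46032627), Vegfc on the plus strand (chr8:54077282-54077531), Pgf on the minus strand (chr12:85177314-85177563), Esm1 on the plus strand (chr13:113209409-113209658) and Flt1 on the minus strand (chr5:147726012-147726261).
Vegfa: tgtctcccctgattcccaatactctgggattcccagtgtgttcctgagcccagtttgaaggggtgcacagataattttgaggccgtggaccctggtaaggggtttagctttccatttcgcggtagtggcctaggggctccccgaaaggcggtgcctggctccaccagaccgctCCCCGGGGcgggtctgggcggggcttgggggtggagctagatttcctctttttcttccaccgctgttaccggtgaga
Vegfc: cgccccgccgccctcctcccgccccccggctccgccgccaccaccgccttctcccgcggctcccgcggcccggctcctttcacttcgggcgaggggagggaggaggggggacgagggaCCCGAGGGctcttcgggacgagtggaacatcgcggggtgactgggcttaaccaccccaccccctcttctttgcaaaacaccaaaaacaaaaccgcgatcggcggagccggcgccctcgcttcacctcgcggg
Pgf: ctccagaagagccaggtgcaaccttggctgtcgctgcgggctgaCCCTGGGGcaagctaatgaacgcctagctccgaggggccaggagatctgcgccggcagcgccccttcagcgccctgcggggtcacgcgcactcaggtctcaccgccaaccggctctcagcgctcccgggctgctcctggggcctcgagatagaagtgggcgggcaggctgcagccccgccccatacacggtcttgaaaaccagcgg
Esm1: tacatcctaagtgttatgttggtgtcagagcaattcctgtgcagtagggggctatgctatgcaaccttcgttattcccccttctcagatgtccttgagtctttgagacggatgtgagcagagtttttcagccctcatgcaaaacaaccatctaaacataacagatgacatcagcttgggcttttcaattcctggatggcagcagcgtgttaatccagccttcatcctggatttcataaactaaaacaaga
Flt1: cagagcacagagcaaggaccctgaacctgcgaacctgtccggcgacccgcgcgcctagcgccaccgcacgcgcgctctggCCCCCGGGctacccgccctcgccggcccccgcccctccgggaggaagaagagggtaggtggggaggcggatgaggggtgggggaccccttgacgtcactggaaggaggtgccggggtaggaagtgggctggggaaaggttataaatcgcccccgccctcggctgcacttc
The letters were found in the windows of Vegfa, Vegfc and Pgf, starting 77, 132 and 206 bases before the start, but also in those of Flt1 and Flt4, and not in those of Esm1, Kdr, Tek or Apln. Vegfa and Pgf each have a second listed start, and the letters were found before that of Pgf and not before that of Vegfa. They occurred in 11.7% of the windows of 27025 genes and in 22.9% of the 7446 windows with at least 60% G and C. The windows shown held 59.2% G and C for Vegfa, 71.6% for Vegfc, 68.4% for Pgf, 70.4% for Flt1 and 44.0% for Esm1. A match is a description of these letters, and the letters did not separate the genes of CAR-like cells from those of endothelial-like cells.

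Most receptors and most ligands had their highest levels in different classes, with Apln, highest in the same class as its receptor, as the exception. Of the 10, the 6 genes Kdr, Flt1, Flt4, Tek, Aplnr and Apln had their highest level over both libraries in endothelial-like cells, and Vegfa, Vegfc, Pgf and Esm1 in CAR-like cells.

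**Figure D1:**
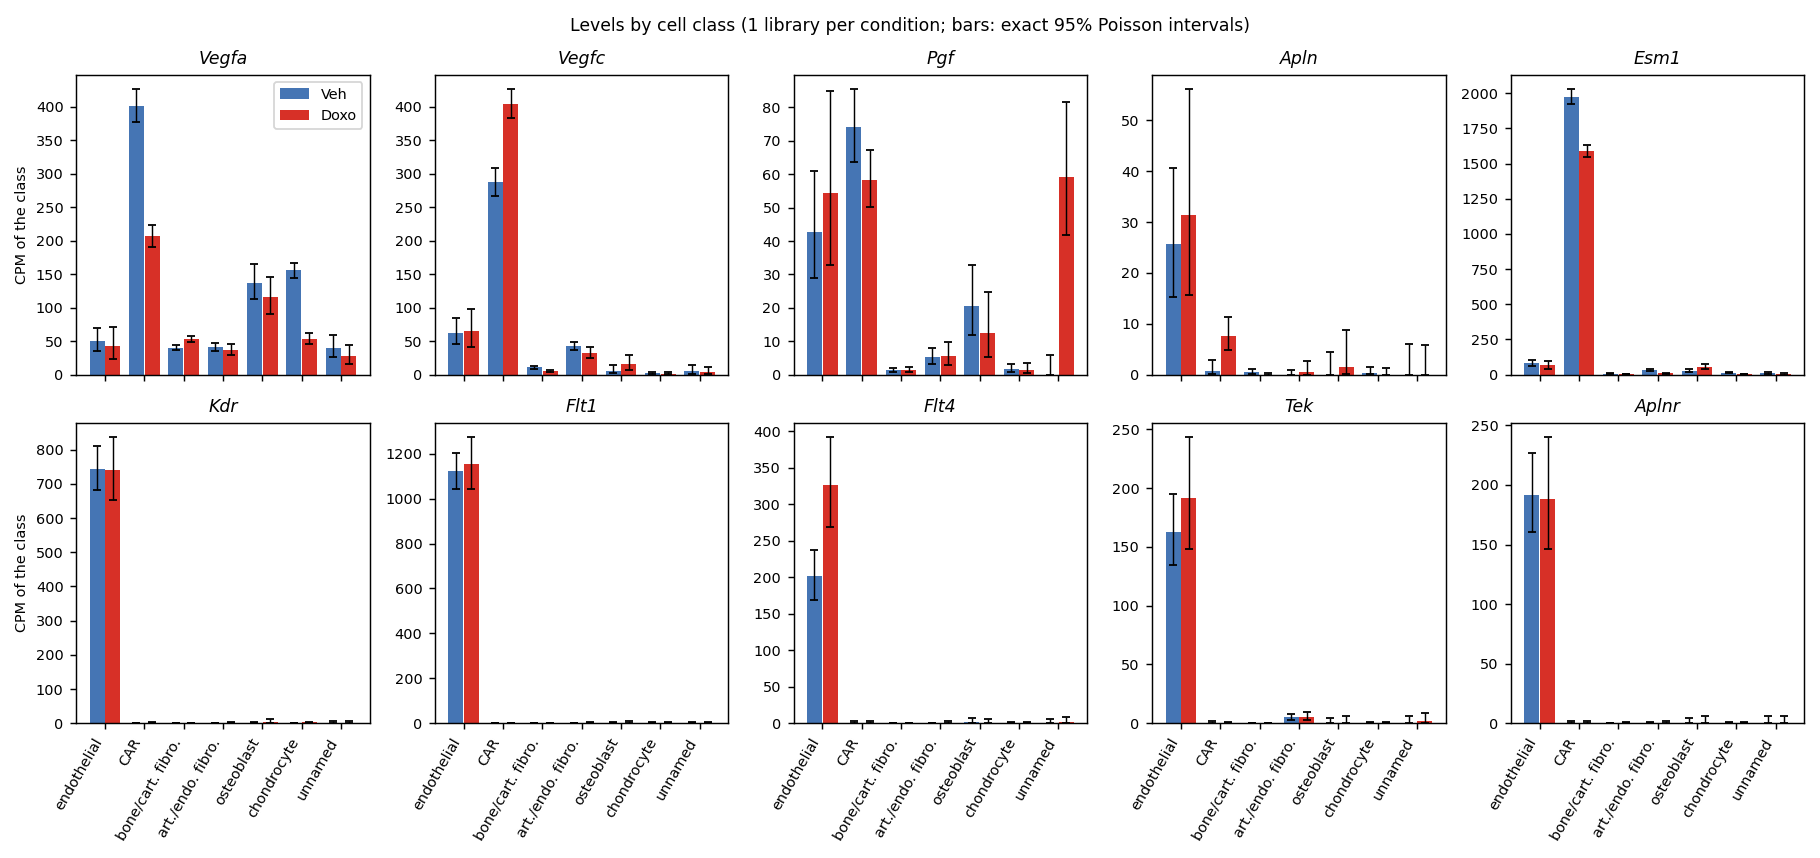
Level of each of the 10 genes (y axis, CPM of the class) in 7 cell classes (x axis) of the Veh library (blue) and the Doxo library (red), with exact Poisson intervals. Kdr, Flt1, Flt4, Tek and Aplnr stand in endothelial-like cells, and Vegfa, Vegfc and Esm1 are highest in CAR-like cells.

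The receptors were close to restricted to endothelial-like cells. Kdr (chr5:75932827-75978458, GENCODE M21 on GRCm38) was at 743 CPM (681 to 810) in the endothelial-like cells of Veh and 740 CPM (653 to 836) in those of Doxo, with intervals that overlap almost entirely. It was found in 90 of 103 and 55 of 69 of these cells, against 0 of 364 and 3 of 420 CAR-like cells, and by a floor of 3 counts 0 of 364 allows a share of cells with a Kdr UMI of up to 0.824%, which does not limit the share that expresses the gene. Flt1 (chr5:147561604-147726011) was at 1121 CPM in Veh and 1154 CPM in Doxo. In no other class did it exceed 2.63 CPM. Of all Kdr UMIs, 98.9% in Veh and 94.2% in Doxo lay in endothelial-like cells, and 7 of the 16 stromal Kdr UMIs of Doxo lay in a single chondrocyte-like cell.

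Flt4 (chr11:49609263-49652739) was at 201 CPM (169 to 237) in the endothelial-like cells of Veh and 326 CPM (269 to 391) in those of Doxo, and its intervals did not overlap. No other class exceeded 1.60 CPM. Tek (chr4:94739289-94874976) was at 163 CPM and 191 CPM, with intervals that overlap. Outside endothelial-like cells it was also found in the arteriolar and endosteal fibroblast-like class, at 4.96 CPM (3.07 to 7.59) in 13 of 425 cells of Veh and 5.59 CPM (2.89 to 9.76) in 9 of 262 cells of Doxo. These held 15.3% and 15.0% of the Tek UMIs of their library, more than any other stromal class. The 8 endothelial markers there summed to 58.9 CPM and 31.2 CPM, and Tek stood at 8.43 and 17.9 UMIs per 100 marker UMIs, against 2.13 and 2.47 in endothelial-like cells, so Tek was high there relative to other endothelial RNA. Aplnr (chr2:85136225-85139923) was at 191 CPM and 189 CPM in endothelial-like cells, and at most 2 of its UMIs were found in any other class of a library.

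Most endothelial-like cells carried more than 1 receptor. A UMI of Kdr, Flt1 or Flt4 was found in 102 of the 103 cells of Veh and 67 of the 69 of Doxo. Kdr and Tek were found together in 55 of 103 and 29 of 69 cells. Kdr and Flt1 shared 79.6% and 75.4% of the cells, Kdr and Flt4 in 49.5% and 46.4%, and Kdr and Aplnr in 43.7% and 34.8%. The Doxo cells had fewer UMIs at the median, so these shares are not at equal depth. Thinned to 2000 UMIs per cell, which left out 7 Veh cells and 8 Doxo cells, Kdr was found in 59.4% and 70.5% of the cells and Flt4 in 27.1% and 41.0%.

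Likeness was taken as the Pearson correlation of log2(CPM + 10) over 14 points (7 classes in 2 libraries), among 10694 genes with at least 200 UMIs. The 3 genes most like each receptor are named. They were Btnl9, Tie1 and Flt1 for Kdr (each r = 1.00), Tie1, Rasip1 and Aplnr for Flt1 (each r = 1.00), Gpihbp1, Mrc1 and Rapgef5 for Flt4 (each r = 1.00), Myct1, Kcnj8 and F11r for Tek (r = 1.00, 1.00 and 0.99) and Cdh5, Adgrl4 and Fam167b for Aplnr (each r = 1.00). The points share libraries, and a single class sets these values, so they are descriptions of where the genes were found.

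Among the ligands, Vegfa (chr17:46016993-46032369) was highest in CAR-like cells in both libraries, at 401 CPM (377 to 427) in Veh and 207 CPM (191 to 223) in Doxo. In Veh it was followed by chondrocyte-like cells at 156 CPM (145 to 167) and osteoblast-like cells at 137 CPM (113 to 165), whose intervals overlap. In Doxo the osteoblast-like cells came next, at 116 CPM (91.2 to 146), and the chondrocyte-like cells stood lower, at 53.9 CPM (46.0 to 62.8), overlapping the bone and cartilage fibroblast-like cells at 53.0 CPM. Endothelial-like cells, both fibroblast-like classes and the unnamed cells lay between 27.2 and 53.0 CPM in either library. CAR-like cells held 39.1% of the Vegfa UMIs of Veh and 42.4% of those of Doxo. Chondrocyte-like cells held 29.6% and 10.3%, and the bone and cartilage fibroblast-like cells, the largest class, 17.6% and 35.6%.

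Vegfc (chr8:54077606-54187096) was more confined to CAR-like cells, at 287 CPM (267 to 309) in Veh and 404 CPM (383 to 427) in Doxo, with 66.5% and 88.7% of all its UMIs. The endothelial-like cells followed at 62.8 CPM (45.6 to 84.3) and 65.7 CPM (41.7 to 98.6). In Veh their interval overlapped that of the arteriolar and endosteal fibroblast-like cells at 42.6 CPM (36.6 to 49.2), and in Doxo that class was at 32.6 CPM (25.4 to 41.2), just below it. Of the 23 Vegfc UMIs of the Doxo endothelial-like cells, 10 lay in a single cell, and without cells with an Adipoq UMI their level was 39.3 CPM (20.9 to 67.1), which overlaps that class. Vegfc was at 1.65 CPM and 1.32 CPM in chondrocyte-like cells, the lowest of the named classes.

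Pgf (chr12:85166635-85177790) was at 74.1 CPM (63.7 to 85.6) and 58.3 CPM (50.3 to 67.2) in CAR-like cells, in 28.3% and 27.9% of the cells. In endothelial-like cells it was at 42.8 CPM and 54.3 CPM, but in only 8 of 103 and 4 of 69 cells, and 16 of the 19 UMIs of Doxo lay in a single cell. Apln (chrX:48025146-48034853) was sparse, with 27 UMIs in the whole Veh library and 38 in Doxo. Endothelial-like cells had 25.7 CPM (18 UMIs in 7 cells) and 31.4 CPM (11 UMIs in 4 cells), and 8 of the latter 11 lay in a single cell.

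Esm1 (chr13:113209659-113218098) had by far its highest level in CAR-like cells, at 1975 CPM (1921 to 2031) in Veh and 1588 CPM (1545 to 1632) in Doxo, or 24.3 and 24.2 times the endothelial-like cells that came next. It was found in 97.0% of CAR-like cells in Veh and 97.6% in Doxo, with a median of 11 UMIs in the cells that had it in each library. In bone and cartilage fibroblast-like cells, whose median depth of 9701 UMIs in Veh was above the 6228.5 UMIs of CAR-like cells, the share was 3.20%. Esm1 overlaps Gzmk, a gene of cytotoxic lymphocytes on the other strand, which had 3 UMIs in all Veh cells and 5 in all Doxo cells. In endothelial-like cells, the cell type for which Esm1 is best known, it was found in 12 of 103 cells at 81.3 CPM (61.6 to 105) and in 9 of 69 cells at 65.7 CPM (41.7 to 98.6). Endothelial-like cells without an Adipoq UMI had 62.8 CPM and 51.3 CPM.

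Single CAR-like cells carried several of these transcripts. A UMI of Vegfa, Vegfc or Pgf was found in 329 of the 364 cells of Veh (90.4%, 86.9 to 93.2%) and 391 of the 420 of Doxo (93.1%, 90.2 to 95.3%). Vegfa and Vegfc were found together in 53.0% and 56.4% of the cells, and Vegfc and Esm1 in 69.5% and 81.4%. Over the 14 points, the genes most like Vegfa were Tnfsf11 (r = 0.90), which encodes the osteoclast factor RANKL, Crnde (0.89) and Podnl1 (0.88). For Vegfc they were Acvr2a, Spry4 and Rftn1 (each 0.97), for Pgf Rufy3 (0.93), Wdr45b (0.92) and Zfp369 (0.91), and for Esm1 Trf (0.98), Arrdc4 (0.97) and Ebf3 (0.97), the CAR marker.

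Between the libraries, none of the 10 genes passed a fold of 2 in endothelial-like cells, where 9.01% of the 6634 genes compared did so in either direction. Flt4 had the largest ratio, at 0.70 (0.33 to 1.06), or 1.62 times higher in Doxo. The ratios of Kdr, Flt1 and Aplnr were -0.01 (-0.23 to 0.21), 0.04 (-0.14 to 0.22) and -0.01 (-0.47 to 0.42). For the class as a whole, a change of 1.5-fold in Kdr or Flt1 thus lies outside their counting intervals. Tek had 0.24 (-0.22 to 0.68), and the other 5 genes had intervals that included 0. Among them Pgf had 0.36, and -1.53 (-4.11 to 0.04) without the cell with most Pgf UMIs in each library. The median over the 10 genes was 0.06, beside 0.04 over all genes compared. Marker lists of all 3 vessel types were also higher in the Doxo cells. Of the 8 sinusoidal markers 6 were higher, and their sum was 2182 CPM in Veh and 2911 CPM in Doxo. Of the 8 arterial markers 6 were higher as well, with sums of 1659 CPM and 2400 CPM. All 4 lymphatic markers were higher, with sums of 78.5 CPM and 134 CPM and none at 0. The part of the cell mix in the Flt4 ratio was not tested. Without cells that had an Adipoq UMI, the Flt4 ratio was 0.67 (0.30 to 1.05).

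**Figure D2:**
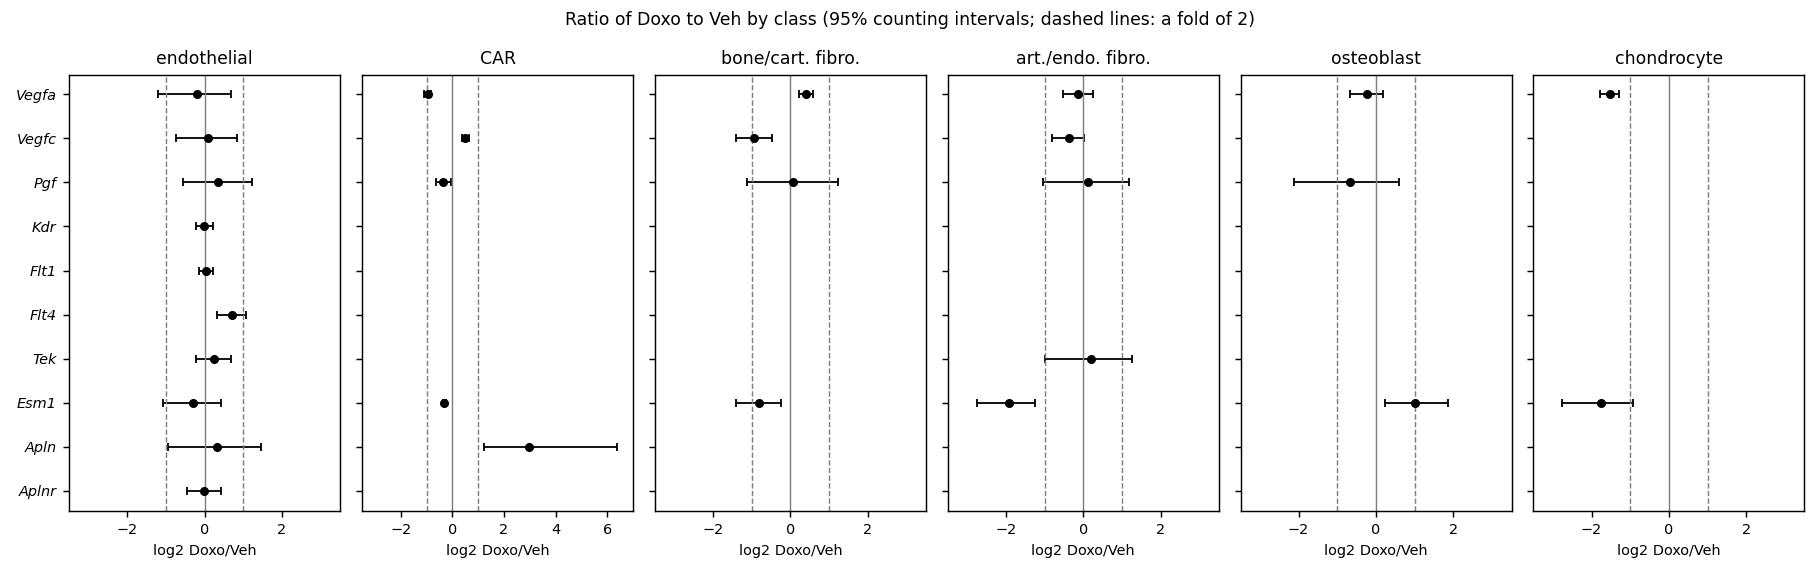
Log2 ratio of Doxo to Veh (x axis) for each gene with at least 20 UMIs in a class and UMIs in both libraries (y axis), by class, with counting intervals; dashed lines mark a fold of 2. Vegfa lies at -0.96 in CAR-like cells and -1.53 in chondrocyte-like cells, while the ratios of Kdr and Flt1 in endothelial-like cells lie near 0.

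In CAR-like cells the VEGF ligands differed in direction. Vegfa stood at 401 CPM in Veh against 207 CPM in Doxo, with a log2 ratio of -0.96 (-1.10 to -0.82), just short of a fold of 2. Vegfc stood at 287 CPM against 404 CPM, with a ratio of 0.49 (0.36 to 0.63). Pgf had -0.35 (-0.64 to -0.04) and Esm1 -0.31 (-0.37 to -0.26). Of the 5 genes compared, Apln alone passed a fold of 2, beside 7.24% of all 11375 genes compared. Its 2 UMIs of Veh stood against 25 of Doxo, spread over 22 cells, for a ratio of 2.95 (1.24 to 6.37), and its level of 7.63 CPM in Doxo remained below that of endothelial-like cells. Kdr, Flt1, Flt4, Tek and Aplnr had too few UMIs in these cells to be compared.

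The CAR-like cells were not uniform in Vegfa. Clustered alone, they gave 3 sub-clusters, of which the second led with Ccl7, Ccl2, Myc and Cxcl1, genes of chemokines and of early response to stimuli, and held 142 cells of Veh and 67 of Doxo. It also carried 4 of 5 erythroid markers, all hemoglobin genes, above the other CAR-like cells, and their part in its Vegfa level was not tested. Vegfa was at 646 CPM (599 to 695) there in Veh and 417 CPM (363 to 476) in Doxo, against 206 CPM (181 to 233) and 166 CPM (151 to 183) in sub-cluster 1, with 212 and 336 cells. Within sub-cluster 1 the ratio of Doxo to Veh was -0.31 (-0.54 to -0.07), and within sub-cluster 2 -0.63 (-0.86 to -0.41). Left without sub-cluster 2, the CAR-like cells had a ratio of -0.28 (-0.49 to -0.05). Ccl2, which leads sub-cluster 2, was itself at 6403 CPM in Veh and 647 CPM in Doxo within it, so the number of its cells is not compared.

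The Vegfc ratio did not share this pattern: it was 0.43 (0.26 to 0.60) in sub-cluster 1, 0.46 (0.19 to 0.72) in sub-cluster 2 and 1.11 (0.37 to 2.00) in sub-cluster 3. Esm1 had -0.36, -0.32 and -0.26 in the 3 sub-clusters. Pgf, at -0.35 over the class, had -0.26 (-0.68 to 0.19), 0.24 (-0.25 to 0.70) and 0.23 (-1.47 to 2.45), so its direction was not the same in all and each interval included 0. Sub-cluster 3 (10 cells of Veh, 17 of Doxo) also carried 8 of 8 bone and cartilage fibroblast markers and 7 of 8 chondrocyte markers and had medians of 14444 and 20245 UMIs, above the other sub-clusters. Without sub-cluster 3 the Vegfa ratio was -0.99 (-1.13 to -0.84).

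**Figure D3:**
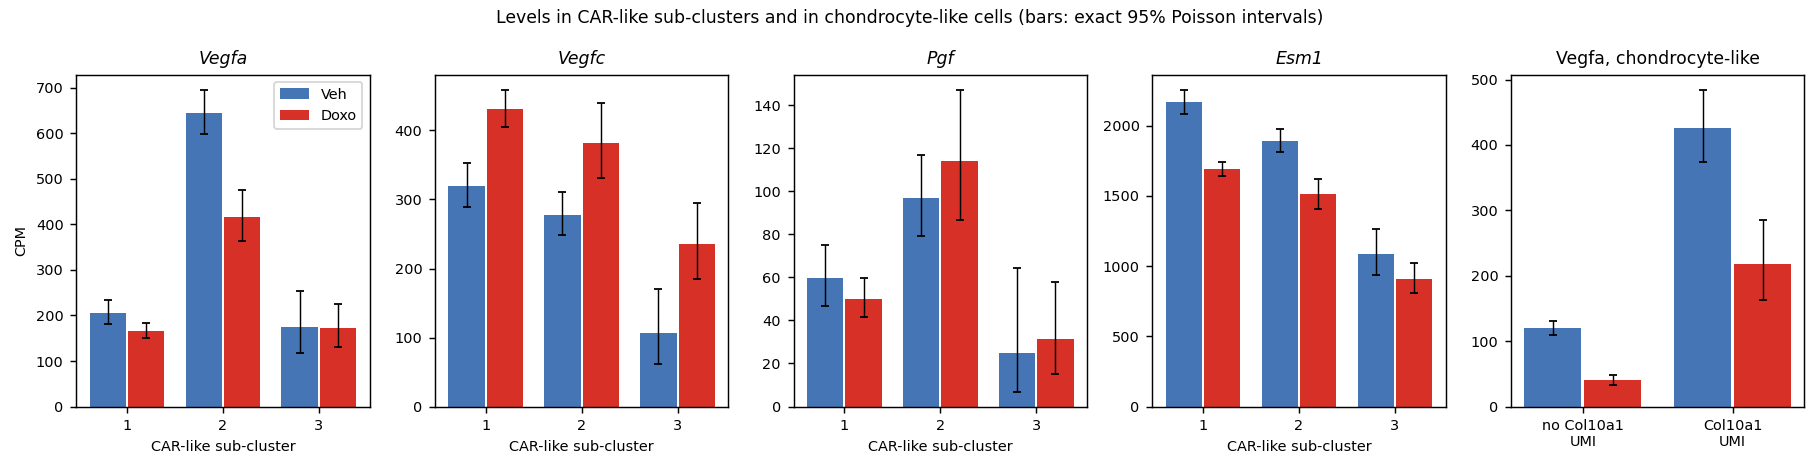
Level (y axis, CPM) of Vegfa, Vegfc, Pgf and Esm1 in the 3 CAR-like sub-clusters and, at the right, of Vegfa in chondrocyte-like cells without and with a Col10a1 UMI, in Veh (blue) and Doxo (red), with exact Poisson intervals. Vegfa is highest in sub-cluster 2, at 646 CPM in Veh and 417 CPM in Doxo, and in cells with Col10a1.

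Chondrocyte-like cells had the largest difference in Vegfa. The Vegfa UMIs numbered 754 in Veh, spread over 125 of the 246 cells, and 164 in Doxo, over 59 of the 201, for a ratio of -1.53 (-1.78 to -1.28), and 31 of the 164 lay in a single cell, without which (and without the highest Veh cell) the ratio was -1.77. Vegfa and Esm1 both passed a fold of 2, of 2 genes compared, beside 9.84% of all 10766 genes compared. Thinned to 2000 UMIs, Vegfa was found in 22.9% of the Veh and 8.08% of the Doxo cells.

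Hypertrophic chondrocytes, marked by Col10a1, are known for Vegfa. In Veh, Vegfa was at 426 CPM (375 to 483) in the 25 chondrocyte-like cells with a Col10a1 UMI and 119 CPM (109 to 130) in the 221 without. In Doxo it was at 218 CPM (163 to 285) in 14 cells and 40.0 CPM (32.9 to 48.1) in 187. The ratio of cells with to cells without Col10a1 was 1.84 (1.61 to 2.06) in Veh. The ratio of Doxo to Veh was -0.96 (-1.43 to -0.53) among cells with Col10a1 and -1.57 (-1.89 to -1.28) among those without, so the difference was present in each. The median depth of the cells with Col10a1 was 18708 UMIs in the Veh library and 19568.5 in the Doxo library, and that of the cells without it 19493 and 14542.

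In bone and cartilage fibroblast-like cells, Vegfa went the other way, from 40.3 CPM (36.6 to 44.2) in Veh to 53.0 CPM (48.7 to 57.5) in Doxo, a ratio of 0.40 (0.22 to 0.58). Vegfc UMIs numbered 120 in 95 cells of Veh and 60 in 57 cells of Doxo, for a ratio of -0.94 (-1.41 to -0.48). None of the 4 genes compared passed a fold of 2 in these cells, beside 4.93% of all 13091 genes. The arteriolar and endosteal fibroblast-like cells gave ratios whose intervals included 0 for Vegfa (-0.13, -0.54 to 0.26), Vegfc (-0.38, -0.80 to 0.02), Pgf (0.13, -1.04 to 1.18) and Tek (0.20, -0.99 to 1.26). In osteoblast-like cells Vegfa had -0.24 (-0.69 to 0.19) and Pgf -0.66 (-2.13 to 0.58).

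Esm1 passed a fold of 2 in 3 stromal classes outside CAR-like cells. In the arteriolar and endosteal fibroblast-like class its 137 UMIs of Veh, 71 of them in 3 cells, stood against 18 of Doxo, for a ratio of -1.92 (-2.75 to -1.24), and it was the only gene past the fold of the 5 compared, beside 5.28% of 11252 genes. Without cells with an Adipoq UMI the ratio was -0.53 (-1.42 to 0.24). In chondrocyte-like cells 72 UMIs of Veh stood against 13 of Doxo, for a ratio of -1.75 (-2.77 to -0.93), and 11 and 9 UMIs without cells with an Adipoq UMI, a ratio of 0.34 (-1.13 to 1.73). In osteoblast-like cells there were 23 UMIs in Veh and 36, in 7 cells, in Doxo, for a ratio of 1.02 (0.23 to 1.85), and Esm1 was the only gene past the fold of the 3 compared, beside 13.3% of 6563 genes. Without cells with an Adipoq UMI, 7 and 2 UMIs were left. Esm1 UMIs per Adipoq UMI were 0.671 in the CAR-like cells of Veh and 0.446 in those of Doxo, and 0.548 and 0.766 in osteoblast-like cells. The arteriolar and endosteal class had 1.16 and 1.20, and the chondrocyte-like class 1.04 and 0.565. Beyond this removal, the part of CAR RNA in the Esm1 levels of these classes was not tested.

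In the unnamed cells, Pgf had 0 UMIs in Veh and 37 in 4 cells of Doxo, 30 of them in a single cell. Against a floor of 3 counts in Veh this is at least 12.2-fold higher in Doxo, while the exact counting interval of the log2 ratio starts lower, at 3.24. Pgf was the gene past a fold of 2 of the 2 compared, beside 6.54% of 6564 genes.

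In a sum over all stromal cells, each class weighs by its UMIs. On this sum 2 of the 8 genes compared passed a fold of 2, beside 6.64% of 15078 genes. They were Kdr, with 6 UMIs in Veh and 16 in Doxo, and Apln, with 9 and 27. Of the 16 Kdr UMIs of Doxo, 7 lay in a single chondrocyte-like cell, and the stromal Kdr ratio was not computed without it. Vegfa had -0.43 (-0.52 to -0.34) and Vegfc 0.75 (0.64 to 0.87). CAR-like cells were 14.6% of the cells of the Veh and 16.9% of those of the Doxo library. They held 2484572 of the 24859695 UMIs of Veh and 3275823 of the 20792012 UMIs of Doxo. Their weight in the sum thus differed between the libraries, and its part in these ratios was not tested.

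The endothelial-like cells were clustered alone to see which genes differ along the vessel tree. Sub-cluster 1 (55 cells of Veh, 43 of Doxo) had 5 of 8 arterial markers but also 6 of 8 CAR markers, among them Cxcl12, Lepr and Lpl. Sub-cluster 2, with 48 and 26 cells, had 6 of 8 sinusoidal markers, among them Stab2, Stab1 and Gpr182, none of which was among its 10 leading genes, so both are given by number. Over both libraries, 6 of the 10 genes passed a fold of 2 between them, beside 18.3% of the 6634 genes compared. Flt4 was at 77.4 CPM in sub-cluster 1 and 299 CPM in sub-cluster 2 of Veh, and at 173 CPM and 496 CPM in Doxo, a log2 ratio of sub-cluster 2 to 1 of 1.65 (1.23 to 2.12) over both libraries. Kdr had 0.49 (0.23 to 0.76) in Veh and 0.92 (0.55 to 1.30) in Doxo. Tek had -0.18 and 0.20, with intervals that included 0. Flt1 had 0.43 (0.22 to 0.65) in Veh and -0.15 (-0.45 to 0.13) in Doxo.

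The secreted factors lay the other way, apart from Vegfa. Esm1 was at 161 CPM in sub-cluster 1 and 17.9 CPM in sub-cluster 2 of Veh, and at 97.5 CPM and 30.2 CPM in Doxo. Over both libraries the ratio of sub-cluster 2 to 1 was -2.62 (-3.69 to -1.77) for Esm1, -1.59 (-2.48 to -0.81) for Vegfc, -1.91 (-3.07 to -0.96) for Pgf, -1.06 for Apln, with an interval of -2.36 to 0.08 that included 0, and 1.61 (0.66 to 2.77) for Vegfa. By library, Vegfa had 2.47 (1.12 to 4.58) in Veh and 0.34 (-1.31 to 2.05) in Doxo. Pgf had -1.09 (-2.34 to 0.02) in Veh. In Doxo its 19 UMIs stood against 0 in sub-cluster 2, and 16 of the 19 lay in a single cell. Sub-cluster 1 also had a higher sum of CAR markers, at 1244 CPM in Veh and 4478 CPM in Doxo. In sub-cluster 2 the sum was 494 CPM and 454 CPM. The part of this difference in these ratios was not tested. Cells were also split by which list, sinusoidal or arterial, had more of its markers found in the cell. Over both libraries Flt4 then had 2.23 (1.64 to 2.93), Esm1 -2.14 (-3.04 to -1.33) and Vegfc -1.79 (-2.61 to -1.04). Flt1 had -0.33 (-0.55 to -0.10) in Veh and -0.34 (-0.65 to -0.01) in Doxo. In Veh this is the opposite sign to its ratio between the sub-clusters.

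Aplnr differed between the sub-clusters in Doxo and not beyond counting error in Veh. It was at 216 CPM (167 to 274) in sub-cluster 1 and 171 CPM (133 to 218) in sub-cluster 2 of Veh, and at 92.0 CPM (53.6 to 147) and 296 CPM (219 to 392) in Doxo. Its ratio of Doxo to Veh was -1.20 (-2.09 to -0.45) in sub-cluster 1 and 0.79 (0.23 to 1.34) in sub-cluster 2, while it was -0.01 over all endothelial-like cells. Of the 66 Aplnr UMIs of Doxo, 16 lay in a single cell. Thinned to 2000 UMIs per cell, the ratio of sub-cluster 2 to 1 was -0.01 in Veh (20 against 19 UMIs in sub-clusters 1 and 2). In Doxo it was 1.10 (-0.25 to 2.61) on 8 against 13 UMIs, beside 1.66 (0.87 to 2.58) on 17 against 49 before thinning. Both thinned intervals included 0, but they rest on fewer UMIs. By number of markers found, the 20 Doxo cells with more arterial markers held 1 Aplnr UMI and the 41 with more sinusoidal markers held 62. In Veh the 36 and 51 such cells held 36 and 74 UMIs. Flt4 had 1.16 (0.35 to 1.99) in sub-cluster 1 and 0.73 (0.30 to 1.15) in sub-cluster 2, so its Doxo level was above its Veh level in each sub-cluster. The split by markers differed: cells with more arterial markers had 91.8 CPM in Veh (20 UMIs) and 40.9 CPM in Doxo (4 UMIs). Cells with more sinusoidal markers had 291 CPM of Flt4 in Veh and 491 CPM in Doxo. The sinusoidal markers summed to 1712 CPM and 1727 CPM in sub-cluster 1 and to 2554 CPM and 4234 CPM in sub-cluster 2. The Doxo to Veh ratio of Flt1 was 0.37 (0.11 to 0.63) in sub-cluster 1 and -0.22 (-0.47 to 0.03) in sub-cluster 2. That of Kdr was -0.22 (-0.59 to 0.14) and 0.21 (-0.07 to 0.48).

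**Figure D4:**
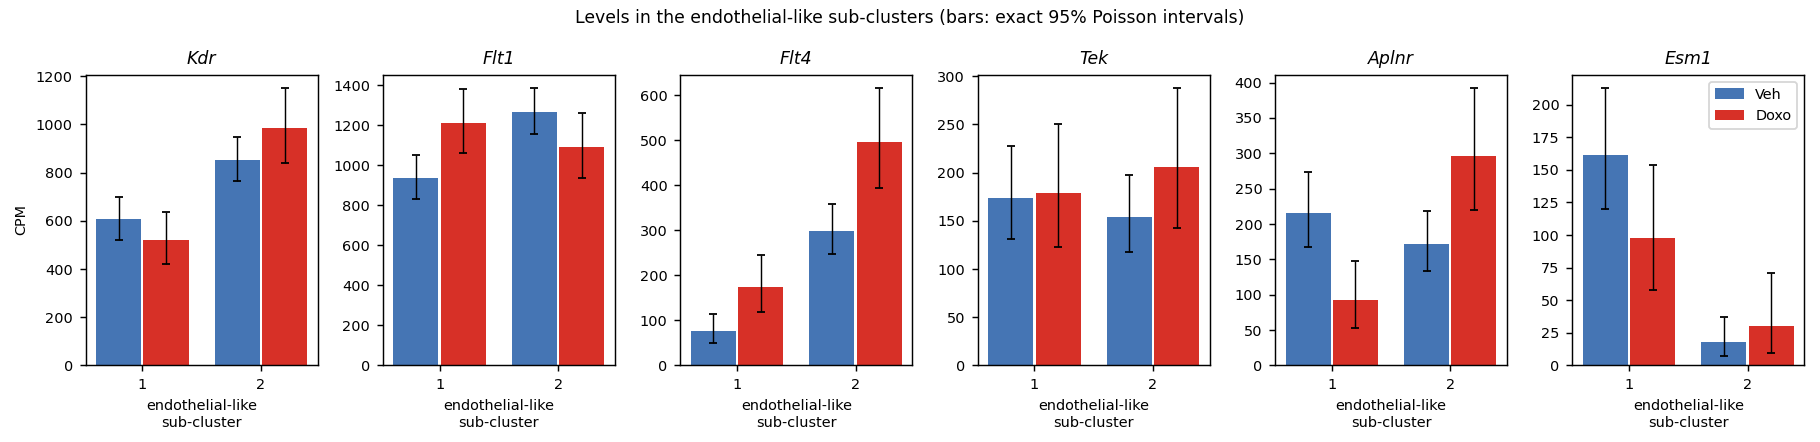
Level (y axis, CPM) of the 5 receptors and of Esm1 in sub-clusters 1 and 2 of the endothelial-like cells (x axis), in Veh (blue) and Doxo (red), with exact Poisson intervals. Flt4 is higher in sub-cluster 2 in each library, and Aplnr is at 92.0 CPM in sub-cluster 1 and 296 CPM in sub-cluster 2 of Doxo.

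Other genes of vessel growth were followed in 5 lists of 55 genes. In endothelial-like cells 38 could be compared, 2 were past the fold in the direction of Doxo (5.14% of all genes) and 1 in that of Veh (3.87%), with a median of 0.10 beside 0.04 over all genes. Cxcl12, the chemokine that names CAR cells, was at 395 CPM against 1494 CPM, with a ratio of 1.92 (1.71 to 2.13), and at 1.34 (1.09 to 1.60) without cells with an Adipoq UMI. Adipoq itself was at 15.7 CPM (11 UMIs) and 120 CPM (42 UMIs) in the endothelial-like cells. It was found in 7.77% of them in Veh and in only 4.35% in Doxo, so its higher Doxo level lay in few cells. The part of CAR RNA in the rest of the Cxcl12 ratio was not tested. Thbs1, an inhibitor of vessel growth, had 1.33 (0.62 to 2.06) and Angptl4, a lipase inhibitor that also acts on vessels, -1.40 (-1.97 to -0.91). None of the 9 compared receptors and co-receptors and none of the 9 compared Notch genes was past the fold.

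In CAR-like cells 43 of the 55 genes could be compared, 2 were past the fold in the direction of Doxo (3.67% of all genes) and 4 in that of Veh (3.56%), with a median of 0.04 beside 0.05 over all genes. Among the 8 ligands compared, Adm, which encodes the vasodilator adrenomedullin, was at 55.9 CPM against 15.6 CPM, with a ratio of -1.84 (-2.34 to -1.37). Angpt2, a ligand of Tie2, was at 77.7 CPM and 36.3 CPM, a ratio of -1.09 (-1.44 to -0.76). Angpt1, the other Tie2 ligand, was within the fold at 235 CPM and 269 CPM in CAR-like cells, and it had 1 and 0 UMIs in the endothelial-like cells that carried Tek. Of the 13 hypoxia genes compared, the glucose transporter gene Slc2a1 (-1.11) and Ndrg1 (-1.17) were lower and Egln3 (3.01, 2 against 26 UMIs) higher in Doxo, with a median of -0.28 over the list beside 0.05 over all genes. Timp3, an inhibitor of metalloproteinases and of VEGF binding, had 1.33 (1.06 to 1.62). Nrp1, a co-receptor of VEGF, was at 628 CPM and 634 CPM in CAR-like cells and 611 CPM and 563 CPM in endothelial-like cells, so it was not confined to the latter as Kdr and Flt1 were.

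In chondrocyte-like cells 31 genes could be compared, 2 were past the fold in the direction of Doxo (4.32% of all genes) and 5 in that of Veh (5.52%), with a median of -0.17 beside 0.05 over all genes. The lower genes were the ligand Fgf2 (-1.74), the co-receptors Nrp1 (-1.39) and Nrp2 (-1.22) and the inhibitors Serpinf1 (-1.80) and Thbs2 (-1.35), and the higher genes were Notch1 (2.02, 6 against 16 UMIs) and the hypoxia gene Ankrd37 (1.60, 14 against 27 UMIs). Of 13 hypoxia genes compared, Ankrd37 was the only gene past the fold, and the list had a median of -0.07. Any link of this list to the Vegfa ratio of the class was not tested.

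In bone and cartilage fibroblast-like cells, 3 of 45 such genes were past the fold, beside 4.93% of all genes: the Notch target Hey1 (1.46), the ligand Vegfd (-1.46) and the inhibitor Tnmd (-1.26, from 73.4 CPM to 30.6 CPM). In arteriolar and endosteal fibroblast-like cells, 1 of 45 was, beside 5.28%, the sphingosine phosphate receptor S1pr1 (-1.34, 37 against 7 UMIs). In osteoblast-like cells 5 of 24 were, beside 13.3%: the cartilage inhibitor of vessel growth Cnmd (2.01), Cxcl12 (1.22), Angptl4 (1.18), Adm (-1.07, 20 against 7 UMIs) and Kdm3a (-1.01). In the unnamed cells 3 of 27 were, beside 6.54%: Thbs1 (-1.85), Hgf (-1.51) and Eng (1.01).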

How the data were processed

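The authors aligned 10x 3′ reads to GRCm38 with Cell Ranger (version not given in the sources used here). The deposited tables give log2(value + 1) for every gene in every cell. Read from the values, UMIs had been brought to a sum of 1000000 within a cell and logged, and the sum was then brought to 1000000 again. These steps were inverted to UMIs, of which 99.9% came out whole in each library (tolerance 0.05, values up to 50 UMIs). For 26 gene symbols in Veh and 24 in Doxo, none of them a member, values were not whole. Cells (at least 200 genes, at most 10% mitochondrial UMIs) were merged without integration and clustered in Seurat 5.3.0 (R 4.3.3) with 35 components of 2000 variable genes at a resolution of 0.1. The 10 genes were kept out of the variable genes. A cluster was named for the list with most markers (at least 3, each in at least 10% of its cells and 1 log2 unit above the others), if 1 of them was among its 10 leading genes, a condition added after the clusters were seen. Scrublet (scanpy 1.11.5) called 9 and 3 doublets (0.362% and 0.121% of cells), too few to say that it worked, and doublets were kept.

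UMIs were summed per class and library (24859695 UMIs in Veh, 20792012 in Doxo). Poisson, binomial and conditional binomial intervals are exact and at 95%. Ratios were also computed on simulated Poisson counts. The intervals assume the same model, so this cannot show how they behave where UMIs lie in few cells. Thinned values use 2000 UMIs per cell. Named are the 10 genes, the listed genes past a fold of 2 (at most 4 per list and class), and the 3 most similar genes for members with at least 100 UMIs. Other genes were named after their values were seen. Members and lists were chosen with earlier results of these data known. Promoter sequences were matched by symbol for 9 of the 10 genes. Python 3.11.15, numpy 2.4.6, scipy 1.17.1, pandas 2.3.3 and matplotlib 3.10.9 were used.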

Additional observations from a re-analysis of the deposited data

Results flagged for a closer look

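With 1 library per condition, no library can stand apart from others of its group. The genes below had ratios of Doxo to Veh whose counting intervals lay on opposite sides of 0 in different classes, and the difference between the classes was not tested. Vegfa had -0.96 in CAR-like cells and -1.53 in chondrocyte-like cells, but 0.40 in bone and cartilage fibroblast-like cells. Vegfc had 0.49 in CAR-like cells and -0.94 in bone and cartilage fibroblast-like cells. Esm1 had 1.02 in osteoblast-like cells, against -0.31 in CAR-like cells and -1.75 in chondrocyte-like cells. In the bone and cartilage fibroblast-like class it had -0.80, and in the arteriolar and endosteal class -1.92. Outside CAR-like cells, these Esm1 ratios depended on cells with an Adipoq UMI, in size and in most classes in sign. Without them the osteoblast-like cells had 7 Esm1 UMIs in Veh and 2 in Doxo, the ratio was 0.34 in the chondrocyte-like cells and 0.34 in the bone and cartilage class (26 and 32 UMIs), and it was -0.53 (-1.42 to 0.24) in the arteriolar and endosteal class.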

How the results depend on the processing

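No paired analysis was possible because each condition has 1 library. In endothelial-like cells the count of members past a fold of 2 was 0 under each of the 11 alternatives, and the ratio of Flt4 ranged from 0.60 to 0.86. With the settings used, between 4.93% and 13.3% of all genes compared in a class were past the fold. No such share was computed for the alternatives, so the counts below are not set against one. Between 5 and 7 of the compared pairs of a member and a stromal class were past the fold under 8 alternatives, beside 6 with the settings used. The count was 1 of 11 pairs with cells thinned to 2000 UMIs and 3 of 8 with cells grouped by Cdh5 and Emcn UMIs, where fewer pairs were compared. It was 3 of 20 without cells with an Adipoq UMI outside the CAR-like class, an alternative chosen after seeing the data, which also turned the ratio of Esm1 in chondrocyte-like cells to 0.34. For the other vessel genes, 28 of 253 pairs were past the fold, and 8 of 91 with cells grouped by Cdh5 and Emcn UMIs. Between the endothelial-like sub-clusters, 3 of 7 members were past the fold after thinning, beside 6 of 10. The ratio of Vegfa between cells with and without Col10a1 in Veh was 2.24 after thinning, also chosen after seeing the data. Leaving out the cell with most UMIs of a gene, or CAR-like sub-cluster 2 or 3, was likewise chosen after seeing the data. Of 342 recomputed ratios of single members, 320 stayed within the interval of the main value, 21 left it and 1 reversed. Vegfa in chondrocyte-like cells ranged from -1.85 to -1.37, and in CAR-like cells from -0.99 to -0.03, the latter in sub-cluster 3. Esm1 in bone and cartilage fibroblast-like cells ranged from -0.95 to 0.34. Beyond naming fewer cells or pairs, the cause was not tested. Depth limits Apln and, in stroma, the receptors, whose few UMIs leave wide intervals, and the number of mice is not known.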
